A study of Mus musculus with 6 samples.

Results

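Eomes sites were described at 9 genes linked to lymphocyte quiescence: the forkhead genes Foxo1, Foxo3 and Foxp1, the Kruppel-like genes Klf3, Klf6, Klf10 and Klf13, and the antiproliferative genes Btg1 and Btg2. Sites were the peaks whose deposited gene symbol was one of these 9, with overlapping peaks of the 3 experiments joined. This gave 122 sites, out of 84399 regions over all symbols. A site found in at least 2 of the 3 experiments is called reproducible here, and 35 of the 122 sites were, out of 20126 reproducible regions in all. The lists held 65, 53 and 73 peaks for the 9 genes in experiments 1, 2 and 3, which was 0.174%, 0.157% and 0.158% of each list.

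Chromatin bound by Eomes, a T-box factor needed for natural killer (NK) cell maturation, was collected from NK cells of C57BL/6 wild-type (WT) mice, 8 to 12 weeks old. The cells were purified from splenocytes pooled across mice and expanded in culture with IL-15, a growth and survival cytokine of NK cells, at 100 ng/mL over 4 days. Each of 3 separate experiments gave 1 immunoprecipitated library (IP), made with an antibody to Eomes, and 1 input library of DNA taken without precipitation as the control. There was 1 cell type and 1 condition, so the data show where Eomes was found and not how it changed, and in a bulk sample a larger share of cells with Eomes at a site cannot be told apart from more Eomes per cell.

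FoxO proteins are forkhead transcription factors that PI3K and Akt signalling keeps out of the nucleus, and in resting lymphocytes they switch on genes for survival, homing and cell cycle arrest. Foxp1 is a forkhead repressor that helps keep naive T cells resting. Kruppel-like factors are zinc finger proteins that bind GC-rich and CACCC elements, and BTG proteins bring the CCR4-NOT deadenylase to mRNAs and so shorten their poly(A) tails.

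Promoters of 5 of the genes lay wholly inside a site found in all 3 experiments, and their sequences are shown for that reason. They run from 250 bases before to 50 bases after the start in RefSeq GRCm38.p6, the assembly behind the mm10 build that the submitters' processing notes name. A site joins overlapping peaks, so the summit of its best-ranked peak can lie outside the printed stretch. That summit lay inside it for Klf6 (-142 bases from the gene start) and Btg2 (-56), and outside for Btg1 (-256), Klf3 (-484) and Klf13 (1164). The summits of the 3 experiments spread over 170 bp for Klf3 and 62 bp for Klf13. The pileup and fold given for these 2 sites are thus not values of the printed bases. The spread was 24 bp for Btg2, 178 bp for Btg1 and 281 bp for Klf6. For Btg1 and Klf6, summits of single experiments may therefore lie on either side of the edge of the printed stretch. Capitals mark a FoxO motif match in Btg1 and 2 Kruppel-like motif matches in Klf13.
Klf3, chr5:64803271-64803570, plus strand: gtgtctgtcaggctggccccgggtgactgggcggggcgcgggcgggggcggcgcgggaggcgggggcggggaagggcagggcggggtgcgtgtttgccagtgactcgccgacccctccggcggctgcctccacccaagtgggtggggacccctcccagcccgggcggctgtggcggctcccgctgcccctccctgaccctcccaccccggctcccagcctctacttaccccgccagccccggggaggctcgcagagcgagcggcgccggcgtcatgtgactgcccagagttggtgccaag
Klf6, chr13:5861239-5861538, plus strand: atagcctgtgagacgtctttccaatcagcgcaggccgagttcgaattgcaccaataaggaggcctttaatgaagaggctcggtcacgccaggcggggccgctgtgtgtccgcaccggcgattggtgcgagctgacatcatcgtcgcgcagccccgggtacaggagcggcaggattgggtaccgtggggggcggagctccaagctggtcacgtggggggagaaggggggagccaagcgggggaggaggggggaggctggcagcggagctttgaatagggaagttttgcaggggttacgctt
Klf13, chr7:63938866-63939165, minus strand: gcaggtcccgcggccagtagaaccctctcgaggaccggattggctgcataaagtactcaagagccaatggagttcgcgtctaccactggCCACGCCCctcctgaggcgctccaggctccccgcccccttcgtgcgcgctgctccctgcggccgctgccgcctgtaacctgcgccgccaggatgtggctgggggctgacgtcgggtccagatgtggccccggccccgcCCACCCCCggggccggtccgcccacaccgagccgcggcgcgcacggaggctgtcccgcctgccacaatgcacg
Btg1, chr10:96616751-96617050, plus strand: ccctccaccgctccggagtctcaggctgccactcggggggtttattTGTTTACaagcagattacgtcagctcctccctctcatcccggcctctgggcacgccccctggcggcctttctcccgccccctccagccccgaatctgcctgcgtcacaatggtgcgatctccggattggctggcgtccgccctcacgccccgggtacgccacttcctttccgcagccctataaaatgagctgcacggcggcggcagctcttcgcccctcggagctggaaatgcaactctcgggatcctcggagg
Btg2, chr1:134079106-134079405, minus strand: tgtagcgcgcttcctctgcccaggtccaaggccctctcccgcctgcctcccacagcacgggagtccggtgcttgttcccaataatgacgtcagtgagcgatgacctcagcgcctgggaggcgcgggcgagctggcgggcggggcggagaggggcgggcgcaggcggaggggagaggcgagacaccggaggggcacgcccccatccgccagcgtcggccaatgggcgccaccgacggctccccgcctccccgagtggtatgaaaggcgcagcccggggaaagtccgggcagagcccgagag

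A RefSeq promoter window was at hand for 8 of the 9 genes, 10 windows in all, of which 3 were alternative starts of Foxp1. These 3 did not cover the outermost Foxp1 start or the internal start at its leading site, both under sites described below. Of these 10 windows, 6 (60.0%) shared bases with a reproducible region, against 32.8% of 21263 windows over protein-coding genes. The sixth was that of Foxo3, of which 242 bases lay under a site found in 2 experiments. None of the 10 windows held the T-box core AGGTGT, which 12.7% of all windows held, or the longer T-box motif AGGTGTGA that contains it, which 1.15% held. Among all windows the core was found in 10.6% of those under a reproducible region and in 13.7% of the others. The FoxO motif GTAAACA was found in 1 of the 10 windows and in 3.01% of all windows, and the match in Btg1 reads TGTTTAC on the printed strand, starting at -204 from the RefSeq start. The Kruppel-like motif GGGNGTGG was found in 1 of the 10 windows and in 19.4% of all windows, and Klf13 held it as CCACGCCC and CCACCCCC, starting at -161 and -23. Both strands were searched, and a match describes the letters only.

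All 9 genes had at least 1 reproducible site, where 43.6% of 21887 protein-coding genes did. All 9 also had a site found in all 3 experiments (28.1% of protein-coding genes) and a reproducible site outside promoters (15.0%). In the promoter class 8 of 9 had a reproducible site (37.2%), Foxo1 being the exception under its own symbol. A promoter-class region 573 bp inside the Foxo1 start was found in all 3 lists, but carried another symbol in experiments 1 and 3. Promoters here are the authors' class, which reaches 3000 bp from any annotated transcript start, internal starts included. Foxp1 and Btg2 had 7 reproducible sites each, a number that 0.708% of protein-coding genes reached. Foxo3 had 5 (2.04% of genes), Klf10 and Klf13 had 4 each (3.45%), and Foxo1, Klf3, Klf6 and Btg1 had 2 each (15.8%). The genes were chosen with earlier results of these data known, so these counts are descriptions, with no test.

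**Figure D1:**
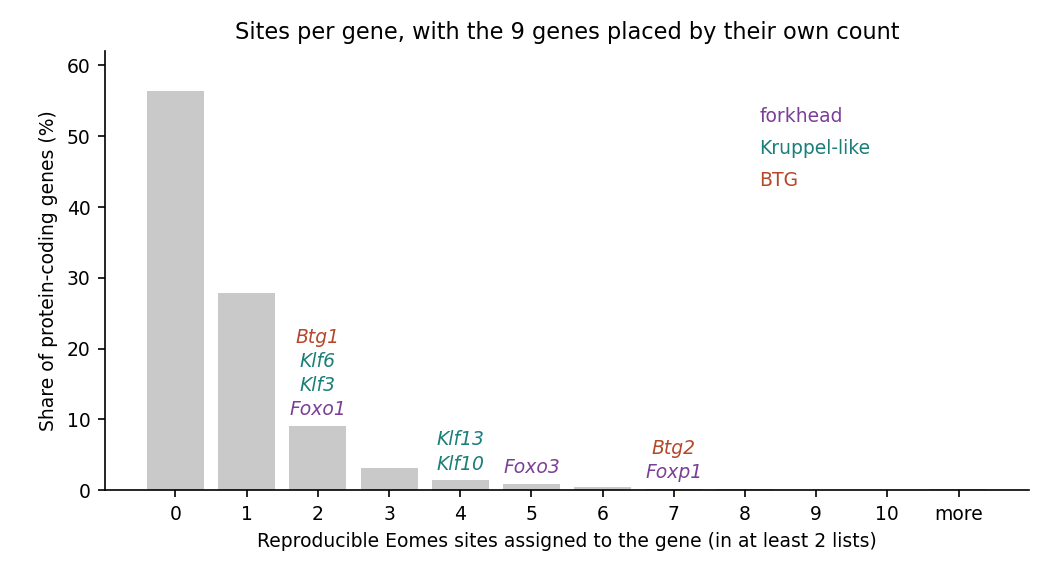
Share of 21887 protein-coding genes (%, vertical axis) by the number of reproducible Eomes sites assigned to the gene (horizontal axis), with the names of the 9 genes written above the bar of their own count. All 9 stand at 2 sites or more, and Foxp1 and Btg2 stand at 7.

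Gene length differs widely among the 9, and a longer gene offers more room for sites. Klf6, Klf10, Btg1 and Btg2 are at most 10000 bp long, a class in which 27.7% of 7926 genes had a reproducible site and genes averaged 0.415 sites. Btg2, 4291 bp long, had 7 sites, but 6 of them were intergenic and outside the gene, so its length does not describe their room. Klf3 belongs to the class over 10000 and up to 30000 bp, in which 49.0% of 6455 genes had a site and genes averaged 0.762. Foxo1, Foxo3 and Klf13 belong to the class over 30000 and up to 100000 bp. There 57.0% of 5077 genes had a site and genes averaged 1.03. Foxp1, 597405 bp long, belongs to the class over 100000 bp, in which 53.1% of genes had a site and genes averaged 1.25 sites.

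At each site, pileup is the deposited value read here as the number of IP fragments at the summit, and fold is the authors' own enrichment over background for that peak. Values are given for experiments 1, 2 and 3 in that order, with the mean ± SD of the fold (n = 3 experiments, or 2 where a site was called in 2). The leading site of a gene is the site in most experiments with the highest mean percentile of the −log10 q-value within its list, and its rank is that of this percentile among the 20126 reproducible regions. Distances run from the nearest annotated transcript start of the gene, with negative values upstream. The median peak had a pileup of 12, 11 and 14 fragments in the 3 lists and a fold of 4.1, 4.67 and 4.08.

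**Figure D2:**
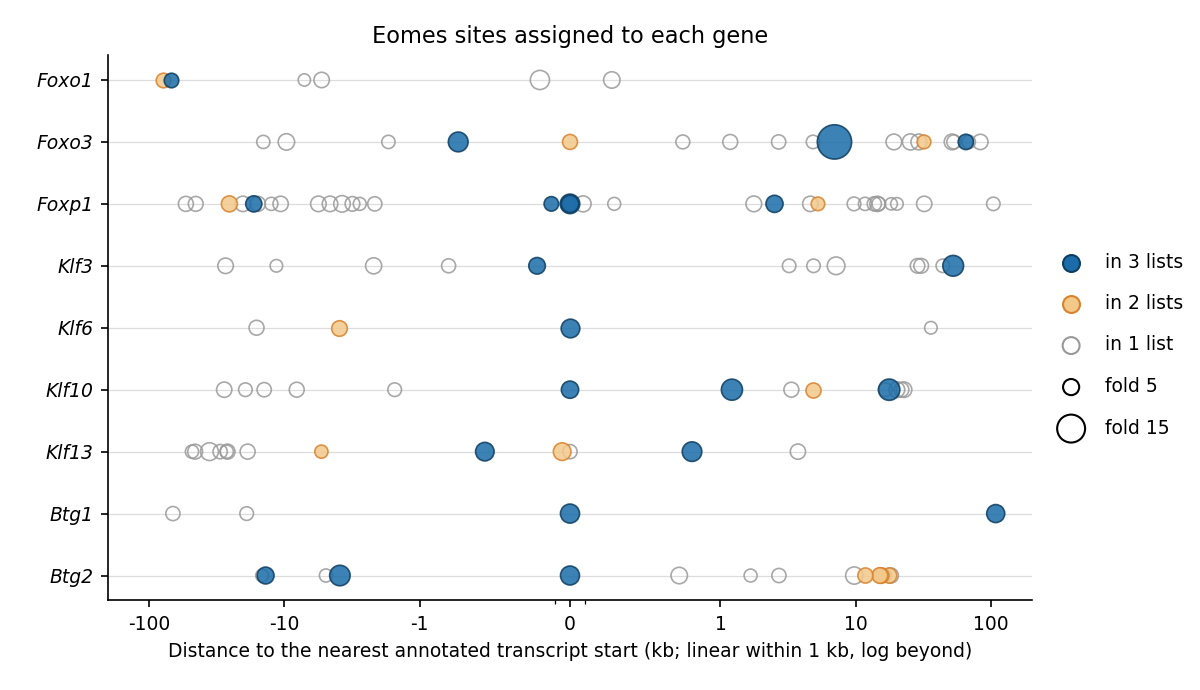
Every Eomes site of the 9 genes (1 circle each) by distance to the nearest annotated transcript start of that gene (kb, linear within 1 kb and logarithmic beyond), with circle area scaled to the mean fold and fill showing the number of lists. The largest circle is the Foxo3 site at 6952 bp, and grey open circles are the 87 sites found in 1 list.

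Among the forkhead genes, Foxo3, a FoxO factor tied to cell cycle arrest and apoptosis, held by far the highest site carrying the symbol of any of the 9 genes. That site lay in intron 2 of 3 at chr10:42269104-42269744, at 6952 bp from the nearest start. Its pileup was 96, 67 and 126 fragments over a background of 2.25, 2.38 and 6.12. The fold was 29.8, 20.1 and 17.8 (22.6 ± 6.37), so every experiment was more than 4 times above the median fold of its list. The peak stood 6th, 58th and 48th by −log10 q-value in the 3 lists and 26th of 20126 reproducible regions, and its 3 summits lay within 1 bp of each other. The background was highest in experiment 3, where the pileup was highest and the fold lowest.

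Foxo3 had 4 more reproducible sites. The one at -743 bp in the promoter, chr10:42277387-42278355, had a pileup of 28, 23 and 30 and a mean fold of 7.49 ± 0.834. The site over the start itself was called in experiments 2 and 3, with 10 and 17 fragments and a fold of 4.28 ± 0.39. At 64932 bp, in what the authors' annotation calls intron 1 of 3, the pileup was 10, 10 and 24. Experiments 1 and 2 thus stood near the smallest pileups their lists hold (8 and 7) and experiment 3 stood higher. This site lies downstream of the leading site in intron 2, so the intron numbers cannot refer to the same transcript. A further intronic site at 31853 bp was called in experiments 1 and 3, with 8 and 13 fragments. Of the 5 sites, 3 were left without experiment 3 and 2 when peaks needed a −log10 q-value of at least 5.

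Foxo1, which in lymphocytes drives Ccr7, Il7r and Klf2, had the weakest leading site of the 9 under its own symbol. This intergenic site at -68670 bp, chr3:52199223-52199733, had a pileup of 18, 9 and 11 and a fold of 5.49, 3.37 and 3.32 (4.06 ± 1.24), and ranked 16844th. Experiment 1 was above the median of its list and experiments 2 and 3 were below theirs. The other reproducible site, at -78851 bp, was called in experiments 2 and 3 with 14 and 20 fragments. In the promoter class, a peak at chr3:52267632-52268137 carried the symbol in experiment 3 alone, with a pileup of 23 and a fold of 7.05. Another at chr3:52268615-52269095 carried it in experiment 2 alone, with a pileup of 11 and a fold of 5.17. No Foxo1 site was left when peaks needed a −log10 q-value of at least 5, and 1 was left without experiment 2 or without experiment 3.

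The deposited lists name the nearest gene start, so a peak over one gene can carry another symbol, and this applied to Foxo1, Foxp1 and Klf13 in particular. Over the RefSeq bodies of the 9 genes lay 26 regions given to another symbol, of which 7 were reproducible and 4 were in all 3 lists. The strongest over Foxo1 lay in its intron 1 at chr3:52297281-52297734 and carried the symbol Gm20402. It had a pileup of 46, 29 and 72 and a fold of 11.9, 7.94 and 19.4 (13.1 ± 5.8), and ranked 574th. Each experiment there was above the leading site under the Foxo1 symbol. Just inside the Foxo1 start, the promoter-class region chr3:52268615-52269942 was found in all 3 lists. It was given to Gm20402 in experiments 1 and 3 and to Foxo1 in experiment 2, with a fold of 5.06 ± 0.336. Within Klf13, the region chr7:63919123-63919752 was given to E030018B13Rik and had a pileup of 64, 58 and 124, a fold of 15.8, 15.6 and 25.8 (19.1 ± 5.81) and rank 70. Over Foxp1, the region chr6:99485912-99486390 was given to Gm22328, with 24, 16 and 38 fragments and a fold of 6.97 ± 0.556. Which gene any of these sites acts on was not tested.

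**Figure D3:**
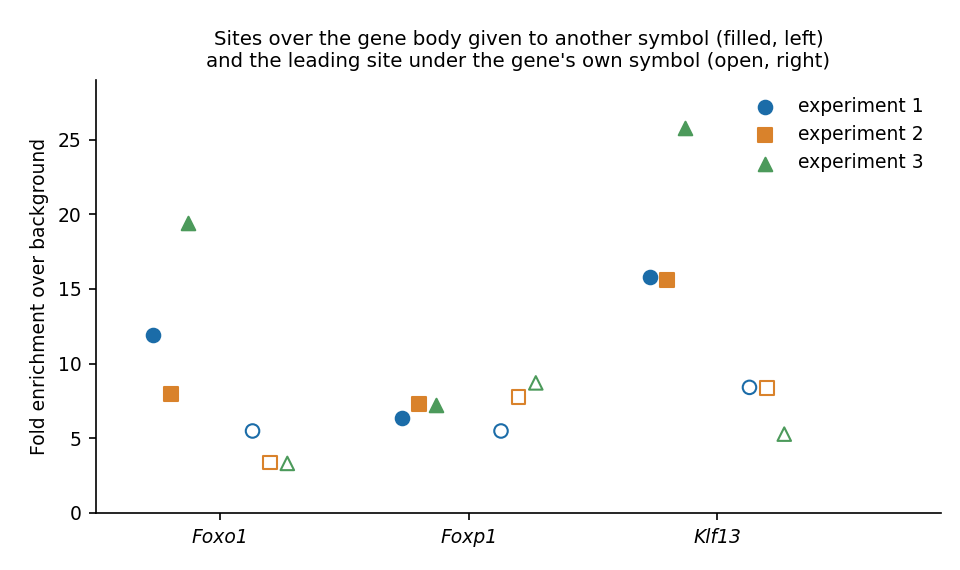
Fold enrichment over background (vertical axis) in the 3 experiments at the strongest region over the gene body that carries another symbol (filled, left) and at the leading site under the gene's own symbol (open, right). For Foxo1 and Klf13 all filled points lie above all open points, and for Foxp1 the filled and open points overlap.

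Foxp1 had 34 sites, the most of the 9, of which 7 were reproducible and 5 were in all 3 lists. Its leading site, chr6:99435050-99435409, was over an internal start within the gene. There the pileup was 18, 17 and 28, the fold was 5.49, 7.75 and 8.71 (7.32 ± 1.65), and the summits lay within 6 bp. A site at the outermost start of the gene, chr6:99522543-99523363, had 16, 13 and 24 fragments and a fold of 5.8 ± 1.55. A weaker one beside another start, at -124 bp, had 11, 9 and 12 fragments and a fold of 4.05 ± 0.403, each below the median pileup of its list. At 2508 bp from a further internal start the fold was 5.63 ± 0.368, with 16, 17 and 25 fragments. The remaining 3 sites lay in introns, with a fold of 4.99 ± 0.946 in all 3 lists at -16763 bp and of 4.91 ± 0.859 and 3.54 ± 0.0112 in experiments 1 and 3 at -25385 and 5249 bp. Of the 7 sites, 4 were left at a −log10 q-value of at least 5.

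Among the Kruppel-like genes, Klf10, a TGF-beta-inducible repressor of proliferation, had the highest leading site under its own symbol. This intergenic site at 17629 bp, chr15:38282380-38283153, had a pileup of 34, 33 and 47 and a fold of 6.45, 8.99 and 10.7 (8.7 ± 2.12), and ranked 992nd. At 1216 bp from the start a promoter-class site had 24, 25 and 30 fragments and a fold of 8.54 ± 1.68. The site over the start had 18, 14 and 37 fragments and a fold of 5.72 ± 0.568, with summits up to 496 bp apart, the widest spread of the 22 sites found in all 3 lists. The fourth, in the 3′ UTR at 4799 bp, was called in experiments 2 and 3 with 12 and 13 fragments.

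Klf13, which in T cells regulates the chemokine gene Ccl5, had 4 reproducible sites, 3 of them in the promoter class. The leading one joined 10 peaks of the 3 lists into a region of 2897 bp over the start, chr7:63937064-63939960, and holds the printed promoter. Its highest peaks had 27, 19 and 32 fragments and a fold of 8.41, 8.38 and 5.28 (7.36 ± 1.8). A site at an internal start, chr7:63925373-63925725, had 25, 15 and 27 fragments and a fold of 6.59 ± 1.01. Sites at -52 and -5308 bp were each called in 2 experiments, with a fold of 5.98 ± 0.284 and 3.34 ± 0.516.

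Klf3, a CtBP-recruiting repressor, had 2 reproducible sites, both in all 3 lists. The stronger lay far downstream of the start, at 52362 bp, chr5:64864677-64865025, with a pileup of 32, 15 and 32 and a fold of 11.7, 5.74 and 7.33 (8.27 ± 3.09). Experiment 2 was the lowest of the 3 there in both values. The site over the printed promoter had 11, 15 and 27 fragments and a fold of 4.26, 5.36 and 6.22 (5.28 ± 0.983), so experiment 1 was below its list's median pileup and experiments 2 and 3 were above theirs. Klf6, a zinc finger activator that induces the cell cycle inhibitor Cdkn1a, had its leading site over the printed promoter, with 16, 19 and 26 fragments and a fold of 5.84, 8.05 and 6.15 (6.68 ± 1.2). The second Klf6 site, at -3931 bp, was called in experiments 2 and 3 with 11 and 19 fragments, and so was lost without either, as it was at a −log10 q-value of at least 5.

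Btg1, an antiproliferative partner of the CCR4-NOT complex, had 2 reproducible sites, both in all 3 lists. The site over the printed promoter, chr10:96616410-96617197, had 27, 20 and 24 fragments and a fold of 6.3, 9.04 and 5.56 (6.97 ± 1.84). The second was intergenic at 107919 bp, the farthest reproducible site of the 9 genes, with 21, 13 and 21 fragments and a fold of 6.24 ± 1.47. All 3 experiments were above their list's median in both pileup and fold at both sites.

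Btg2, a p53-inducible relative of Btg1 that is likewise tied to CCR4-NOT, had 1 promoter site and 6 intergenic ones around a short gene. The leading site at -3876 bp, chr1:134082955-134083503, had 37, 18 and 40 fragments and a fold of 10.9, 5.62 and 7.63 (8.05 ± 2.67). The site over the printed promoter had 20, 19 and 32 fragments and a fold of 6.92 ± 1.48, with summits within 24 bp. At -13708 bp another site in all 3 lists had 15, 15 and 29 fragments and a fold of 5.46 ± 1.96. Downstream, 4 sites at 11764, 15035, 15373 and 17632 bp were each called in 2 experiments, with a mean fold between 4.4 and 4.7. Those at 15373 and 15035 bp, chr1:134063477-134063808 and chr1:134063881-134064085, are close neighbours that count as separate sites only because they share no base. The count of 7 depended on the downstream sites: 4 sites were left without experiment 1 or without experiment 3, and 3 when peaks needed a −log10 q-value of at least 5.

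**Figure D4:**
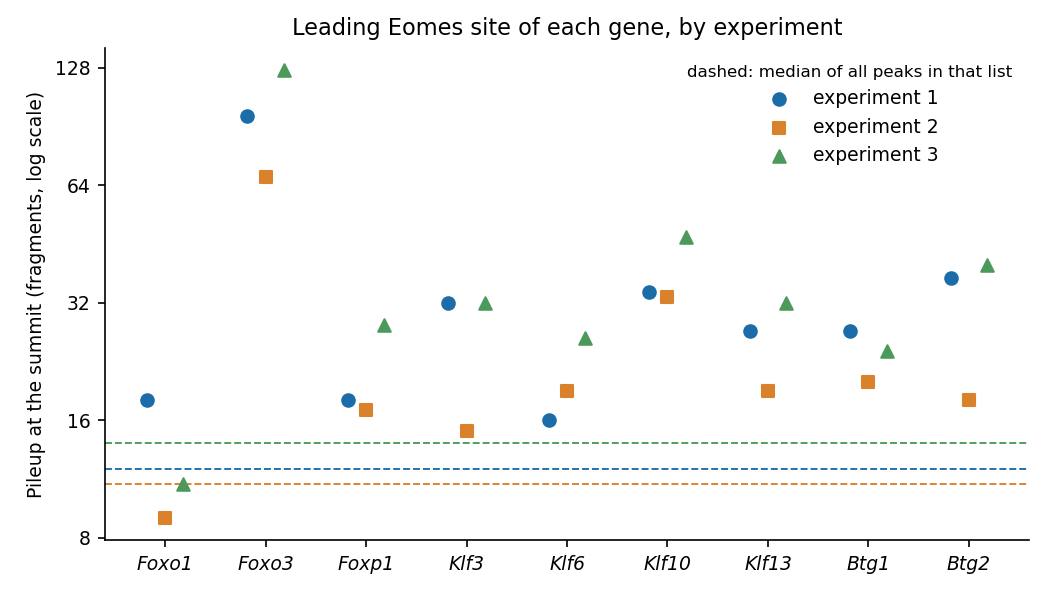
Pileup at the summit (IP fragments, log scale) of the leading Eomes site of each gene in experiments 1, 2 and 3, with dashed lines at the median pileup of all peaks in each list (12, 11 and 14). The Foxo3 points lie between 67 and 126, and only the Foxo1 points reach down to the medians.

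By family, 14 of 59 forkhead sites (23.7%), 12 of 43 Kruppel-like sites (27.9%) and 9 of 20 BTG sites (45.0%) were reproducible, against 23.8% of sites of all other symbols. Sites of the 9 genes join only peaks carrying their symbols. Sites of other symbols, here and below, were joined across any symbol, so the 2 sides differ in this rule. Reproducible forkhead sites comprised 6 in promoters, 6 in introns and 2 intergenic. Reproducible Kruppel-like sites comprised 7 in promoters, 1 in an intron, 3 intergenic and 1 in a 3′ UTR. Reproducible BTG sites comprised 2 in promoters and 7 intergenic.

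Over the 9 genes, 15 of 35 reproducible sites (42.9%, 95% Wilson interval 28.0 to 59.1) were in the promoter class, against 59.1% (58.4 to 59.8) for all other symbols. The intergenic share was 34.3% at the 9 genes and 18.0% elsewhere, the intronic share was 20.0% and 18.0%, and sites over 10000 bp from a start made up 40.0% and 26.8%. Intervals cover counting error only and treat sites of 1 gene as independent, which they are not. Among sites found in all 3 lists the promoter share was 59.1% at the 9 genes and 63.8% elsewhere. With a −log10 q-value of at least 5 the order turned, with 65.0% (43.3 to 81.9, 13 of 20 sites) at the 9 genes and 59.1% elsewhere. Promoter sites of the 9 genes had a median mean fold of 6.59, against 4.84 at other promoters, and their other sites had 4.65, against 4.84.

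Per experiment, the promoter share of peaks was 40.0%, 43.4% and 35.6% for the 9 genes, against 41.2%, 47.0% and 44.6% for all other symbols. It was lower at the 9 genes in each experiment, by a mean difference of -4.6 ± 3.97 percentage points (SD, n = 3), with p = 0.25 by a two-sided exact sign-flip permutation test. The share of peaks also found in another experiment was 53.8%, 64.2% and 49.3% for the 9 genes and 45.2%, 50.2% and 41.9% for all other symbols. It was higher at the 9 genes in 3 of 3 experiments, by 8.69, 13.9 and 7.39 points (SD of the difference 3.46), with means of 55.8% ± 7.6 at the 9 genes and 45.8% ± 4.18 elsewhere (SD, n = 3) and an exact permutation p of 0.25. With 3 experiments this test cannot give a p below 0.25, so neither difference can pass a test, and both shares draw on the same merged regions. Nothing in the labels separates culture from technical spread beyond the 3 experiments being separate.

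**Figure D5:**
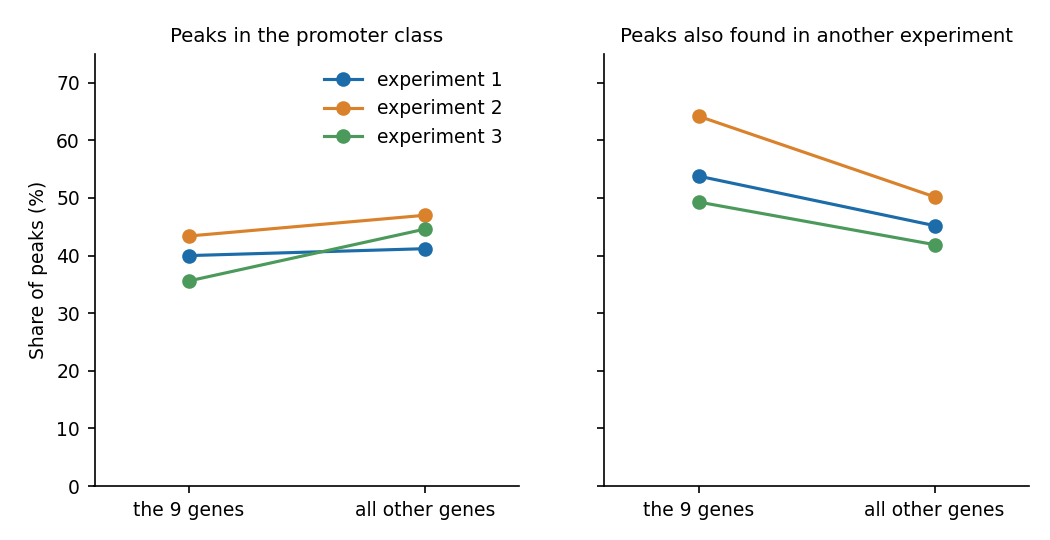
Share of peaks (%) in the promoter class (left) and also found in another experiment (right), for the 9 genes and for all other genes, with 1 line per experiment. On the right all 3 lines stand higher at the 9 genes, and on the left all 3 stand lower.

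Most sites of the 9 genes came from 1 list: 87 of 122 (71.3%), against 76.2% for other symbols. These comprised 30, 20 and 37 sites in experiments 1, 2 and 3, with a fold of 2.89 to 6.08, 3.01 to 5.25 and 3.07 to 7.05. Of the 13 sites found in 2 lists, 1 was shared by experiments 1 and 2, 6 by experiments 1 and 3, and 6 by experiments 2 and 3. A site missing from a list was not called there, and the lists do not tell weak signal from none. In sites found in all 3 lists the summits lay within 100 bp in 12 of 22 (54.5%) at the 9 genes and in 65.1% elsewhere, with a median spread of 69.5 and 60 bp.

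Other genes of the same pathways were read from 4 lists, by the symbol that peaks carry. Peaks over their gene bodies under another symbol are not counted here. Among 22 forkhead, Kruppel-like and BTG/TOB relatives, 14 (63.6%) had a reproducible site and 13 had one in all 3 lists. The strongest were at Tob2, an antiproliferative relative of the BTG genes (10.8 ± 5.29), Klf11 (7.44 ± 1.36) and Klf2, which keeps T cells resting and recirculating (7.02 ± 1.61), all as mean fold (SD, n = 3). No peak in any list carried the symbol Foxp3, Klf8 or Klf12. Of 14 genes that control FoxO proteins, 13 (92.9%) had a reproducible site, led by Sgk1, a kinase that phosphorylates FoxO (13.7 ± 5.12), and Pik3r1, a regulatory subunit of PI3K (9.61 ± 3.18).

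Of 16 known FoxO targets, 15 (93.8%) had a reproducible site. Ccng2, an atypical cyclin linked to cell cycle arrest, had a fold of 28.5 ± 2.43, Bcl2l11, which encodes the death factor Bim, had 11.1 ± 1.05, and Cdkn1a, which encodes p21, had 9.57 ± 3.34. No peak in any list carried the symbol of Il7r, the interleukin 7 receptor. All 12 CCR4-NOT and poly(A)-binding genes had a reproducible site, with Cnot8 at 8.32 ± 2.27, Cnot6 at 8.45 ± 2.16 and Pabpc1 at 6.52 ± 0.479. All of these shares are to be read beside the 43.6% of protein-coding genes with a reproducible site. The count of relatives with a site in all 3 lists is to be read beside 28.1%.

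A peak is not expression, so the label of the cells could not be checked by levels. Reproducible sites were assigned to 5 of 6 NK cell marker genes, 0 of 2 T cell, 1 of 3 B cell and 2 of 3 myeloid marker genes, to be read beside the 43.6% of all protein-coding genes.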

How the data were processed

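The data were 3 deposited peak lists, 1 per experiment, from 3 IP and 3 input libraries. Per the submitters' processing notes, Novoalign (alignment), ChIPseeker (annotation) and mm10 were used, without versions. The peak caller is not named in the sources used here. Fragments of 200 to 600 bp were amplified for 15 cycles, per the labels' protocols. Pileup (a signal: whole numbers of fragments at the summit), fold (a ratio of IP to background) and −log10 p- and q-values were deposited by the authors, per the file headers. Each list sets an IP against its own input, as the sample descriptions pair them, and no input values were used separately. Scores and folds describe, rank or filter peaks. The sources used here give no sequencing depth. The lowest background shared by many peaks of a list, recovered as (pileup + 1) / fold − 1, was 1.82, 1.32 and 2.33 fragments, and the smallest pileup was 8, 7 and 9.

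Rows repeating an interval were collapsed to the highest −log10 q-value, which left 37456, 33841 and 46329 intervals. Intervals sharing at least 1 bp were joined and called reproducible in at least 2 lists, and the joining was checked with bedtools 2.31.1 and tested on simulated data. The lists' own coordinates are printed. Genes came from 21887 protein-coding RefSeq genes. All 9 genes are named, and from each pathway list the 3 genes with the highest leading site and those whose symbol no peak carried. One gene that this rule names is not reported here. Members and lists were chosen with earlier results of these data known. Alternatives covered the number of lists, overlap, q-value, promoter width, gene body and left-out experiments. Python 3.11.15, pandas 2.3.3, SciPy 1.17.1 and matplotlib 3.10.9 were used.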

Additional observations from a re-analysis of the deposited data

How the results depend on the processing

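All 9 genes kept a reproducible site under each alternative tried for them except the stricter q-value (−log10 of at least 5), which left 8, without Foxo1. The 35 reproducible sites became 22 when all 3 lists were needed, 20 under the stricter q-value and 26 to 28 with an experiment left out. Their promoter share (42.9%) was 65.0% under the stricter q-value, 65.5% when sites were given to the RefSeq gene body they overlap (which leaves out intergenic sites by construction), and 46.4% to 61.5% with an experiment left out. The share of protein-coding genes with a reproducible site (43.6%) was 28.1% for all 3 lists, 41.9% for overlaps of 100 bp, 24.9% under the stricter q-value, 45.3% by gene body and 30.0% to 36.1% with an experiment left out. Without each experiment in turn, the difference between the 9 genes and other symbols ran between -6.3 and -2.42 percentage points for the promoter share and between 9.36 and 13.2 for the shared share. These left-out differences, and joining peaks of any symbol to a site, were chosen after seeing the data. That joining gave 36 reproducible sites at the 9 genes, with a promoter share of 44.4%. Without experiment 1, the leading Foxo1 site was the one at -78851 bp (fold 4.08) and the leading Btg2 site the one over its promoter (fold 7.78), while the reported leading sites had a fold of 3.34 and 6.62 in the other experiments; the other 7 genes had the same leading site without any 1 experiment. The 9 genes and other symbols were compared within each experiment; of IP against input libraries, no paired analysis was possible because each list already sets the IP against the input of its own experiment. Peaks under 7 to 9 fragments were not listed, which limits what could be detected, and 1 IP library per experiment carries culture and library spread together.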
